A study of Rattus norvegicus with 18 samples.

Results

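Tead1 and 8 other genes of the Hippo pathway (Tead4, Yap1, Wwtr1, Lats1, Lats2, Sav1, Stk3 and Vgll4) were followed through the authors' 3 lists of changed genes. The 9 genes were matched by symbol among the 6588 genes that appear in at least 1 list, and the set was chosen by the fold and adjusted p of Tead1, which stood among the strongest falls against WKY. The folds and adjusted p-values of these genes are therefore a description of what led to the choice, and no test was added to them. Polyadenylated RNA of the left ventricle had been sequenced from 18 male rats, 6 in each group. ZSF1 obese rats have hypertension and metabolic syndrome and stand for heart failure with preserved ejection fraction (HFpEF). ZSF1 lean rats form the hypertensive group, and Wistar Kyoto (WKY) rats were the wild-type control. No transgene, drug or further allele is named for any group, and the labels state no ages. WKY is a separate strain, so strain and disease differ together in the comparisons with it.

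The Hippo pathway is a kinase cascade that restrains growth. The kinases Stk3 and Stk4, with the scaffold Sav1, switch on Lats1 and Lats2, which phosphorylate the coactivators Yap1 and Wwtr1 (TAZ) and keep them out of the nucleus. When Yap1 or Wwtr1 enters the nucleus it acts through the TEAD proteins, DNA-binding factors that recognise the M-CAT element CATTCC and have no strong activating domain of their own. Vgll4 competes with Yap1 for TEAD proteins. In the heart the TEAD proteins are known for binding M-CAT elements in promoters of contractile genes, and Yap1 for its part in the proliferation of fetal heart muscle cells.

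The M-CAT element occurs in some promoters of this pathway and of its targets. The stretches shown lie in the 250 bases before the annotated start of 4 genes, from RefSeq on rat build GRCr8, minus strand, with CATTCC or its reverse complement in capitals. Yap1 (chr8:13451438-13451687) and Vgll4 (chr4:149710215-149710464) are shown because they moved in opposite directions in obese against lean hearts. Ccn2 (chr1:22624615-22624864) is shown as a classical target with 3 elements, and Acta2 (chr1:241172504-241172753) as a contractile gene that was higher in obese hearts.
Yap1: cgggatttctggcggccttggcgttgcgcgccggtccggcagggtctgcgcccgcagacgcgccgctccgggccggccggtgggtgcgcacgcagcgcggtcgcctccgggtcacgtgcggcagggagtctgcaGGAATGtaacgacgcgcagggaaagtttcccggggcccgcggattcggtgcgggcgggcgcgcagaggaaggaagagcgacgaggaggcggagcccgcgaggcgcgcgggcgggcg
Vgll4: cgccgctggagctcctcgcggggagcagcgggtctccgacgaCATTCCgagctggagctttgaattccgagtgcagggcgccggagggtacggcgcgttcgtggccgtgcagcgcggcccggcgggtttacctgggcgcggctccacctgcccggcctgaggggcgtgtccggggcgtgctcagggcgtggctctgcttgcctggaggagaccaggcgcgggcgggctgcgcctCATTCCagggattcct
Ccn2: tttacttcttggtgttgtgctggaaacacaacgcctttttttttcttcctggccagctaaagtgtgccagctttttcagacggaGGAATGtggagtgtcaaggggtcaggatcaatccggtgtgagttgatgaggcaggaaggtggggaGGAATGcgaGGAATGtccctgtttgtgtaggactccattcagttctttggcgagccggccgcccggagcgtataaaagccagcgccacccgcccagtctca
Acta2: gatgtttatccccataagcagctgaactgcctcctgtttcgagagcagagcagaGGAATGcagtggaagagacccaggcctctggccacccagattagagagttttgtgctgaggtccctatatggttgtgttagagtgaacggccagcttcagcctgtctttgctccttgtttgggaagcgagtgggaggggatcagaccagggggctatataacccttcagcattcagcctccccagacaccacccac
The element of Yap1 begins 116 bases before the start. Those of Vgll4 begin 208 and 16 bases before it, in 1 of its 3 annotated promoters. In Ccn2 the elements begin 166, 101 and 92 bases before the start, and in Acta2 196 bases before it.

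Tead1 was lower in obese hearts than in either other group. The authors' deposited table put Tead1 (ENSRNOG00000015488) at 0.054 of the ZSF1 lean level in ZSF1 obese hearts, a log2 fold of -4.21 (adjusted p = 9.15e-265). Against WKY, the authors' deposited table put Tead1 at 0.052, a log2 fold of -4.27 (adjusted p = 7.21e-286). Among 2655 genes listed as lower in obese than in lean hearts, Tead1 ranked 39 by fold in the authors' deposited table, on a fold that 6 genes share, and 25 by adjusted p. Among 2625 genes lower in obese than in WKY hearts it ranked 36 by fold and 5 by adjusted p.

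The other TEAD genes with a listed value, Tead4 and Tead2, were higher in obese hearts. Tead4 (ENSRNOG00000005608), which encodes a TEAD factor known as RTEF-1, had folds of 2.31 over lean hearts (adjusted p = 1.99e-14) and 3.05 over WKY hearts (adjusted p = 7.13e-25) in the authors' deposited tables. Tead2, a TEAD factor known from the embryo, had folds of 2.95 over lean hearts and 3.29 over WKY hearts in the authors' deposited tables. Tead3 was listed in none of the 3 tables. Of the 4 TEAD genes, 1 was thus listed as lower and 2 as higher in each obese comparison. The tables hold folds and not levels, so they do not show how much of the TEAD mRNA in the heart each gene supplied, nor whether the sum of the 4 was lower.

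Of the coactivators, Yap1 was lower and Wwtr1 was not listed. The authors' deposited tables put Yap1 (ENSRNOG00000005933) at 0.240 of the lean level (adjusted p = 1.25e-82) and at 0.237 of the WKY level (adjusted p = 7.17e-69) in obese hearts. By fold it ranked 829 among the 2655 lower genes against lean hearts and 829 among the 2625 against WKY hearts. By adjusted p it ranked 363 and 306. Its fall was larger than that of the median lower gene, which stood at 0.314 of the lean level and 0.312 of the WKY level. In the authors' deposited table Vgll4 (ENSRNOG00000007822) stood in obese hearts at 2.36 times its lean level (adjusted p = 6.23e-16). It was not listed for obese against WKY.

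**Figure D1:**
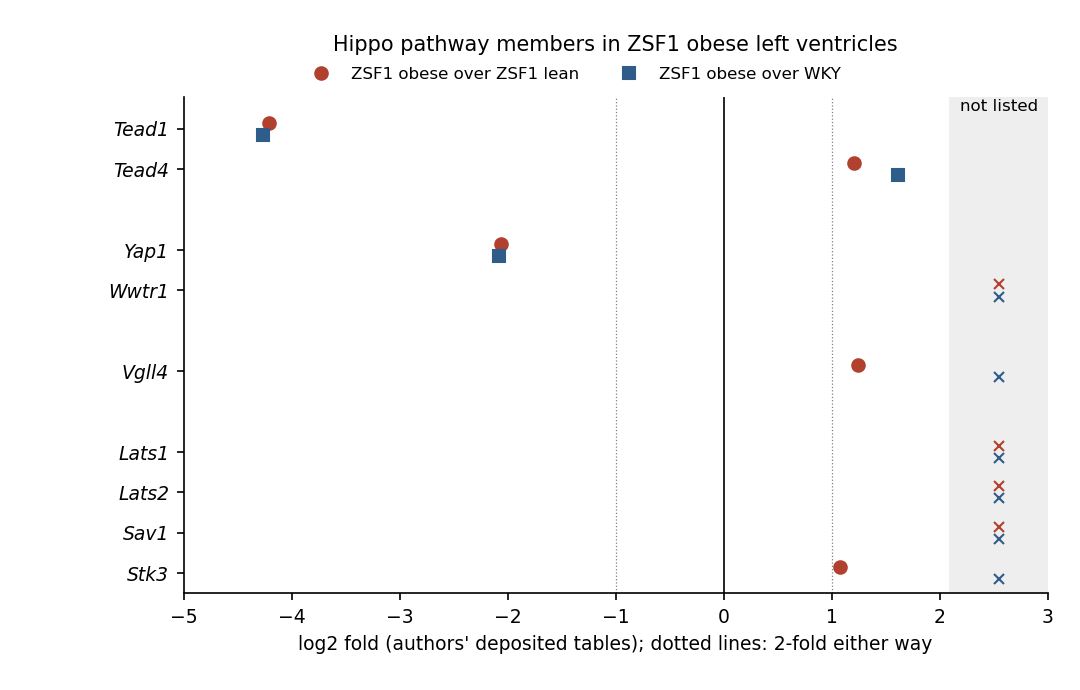
Log2 folds (horizontal axis) of the 9 Hippo pathway genes in ZSF1 obese over ZSF1 lean (circles) and ZSF1 obese over WKY (squares) left ventricles, each point 1 deposited fold from 6 against 6 rats; crosses in the grey lane mark genes without a listed value. Tead1 lies near -4.2 and Yap1 near -2.1 in both comparisons, while Tead4, Vgll4 and Stk3 lie to the right of 1 wherever they are listed.

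Of the 7 genes of the core kinase list, 5 were not listed for obese against lean and 6 were not listed for obese against WKY. Most named protein-coding genes were not listed either. Against lean hearts 12.1% of them were listed as lower and 13.5% as higher, and against WKY hearts 12% and 13.7%. Lats1, Lats2 and Sav1 were listed in none of the 3 tables, and neither were Stk4 and Mob1a, an adaptor of the Lats kinases. Stk3 (ENSRNOG00000011278), the kinase also called MST2, had in the authors' deposited table an obese over lean fold of 2.11 (adjusted p = 8.53e-42), close to the 2-fold limit of the list. It was not listed for obese against WKY. Whether the folds of Stk3 and Vgll4 differ between the 2 obese comparisons was not tested, since a gene that is not listed has no value. Mob1b, the paralog of Mob1a, was lower, at 0.210 of the lean level (adjusted p = 6.89e-38) and 0.253 of the WKY level in the authors' deposited tables.

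In all, 2 of the 9 genes were listed as lower, 3 as higher and 4 not at all for obese against lean. For obese against WKY, 2 were lower, 1 higher and 6 not listed. Over named protein-coding genes of the RefSeq table, 12.1% were listed as lower and 13.5% as higher for obese against lean, and 12% and 13.7% for obese against WKY. Among listed genes, 46.6% were lower for obese against lean and 46% for obese against WKY. The RefSeq table also holds genes that the heart does not express, and nothing about the 9 genes is read from these shares because the comparison itself led to their choice. The 2 comparisons share the 6 obese rats, so their folds are not independent. In the obese comparisons, a gene without a listed value may have changed less than 2-fold or missed the adjusted p limit of 0.05. It may also not have been detected.

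None of the 9 genes was listed for lean against WKY, nor was any of the 90 genes of the wider Hippo network described here. That list held 233 genes, and 208 of the named protein-coding genes, or 0.993%, were matched in it. Its largest adjusted p was 0.000347, although the other lists run up to 0.050. Whether a stricter limit was used for that list is not known, so absence from it need not mean an adjusted p above 0.05. The quotient of the obese folds gives a rough lean over WKY value for members in both obese tables. On the log2 scale it was -0.05 for Tead1, -0.02 for Yap1 and 0.40 for Tead4. All 79 genes present in the 3 tables had the same sign by this quotient and in the deposited lean table. Each of them had changed at least 2-fold in every table. The values differed by a median of 0.34 and by up to 2.56 on the log2 scale, and 16 of the 79 lay within 0.1. The quotients come without an estimate of error and were not tested.

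**Figure D2:**
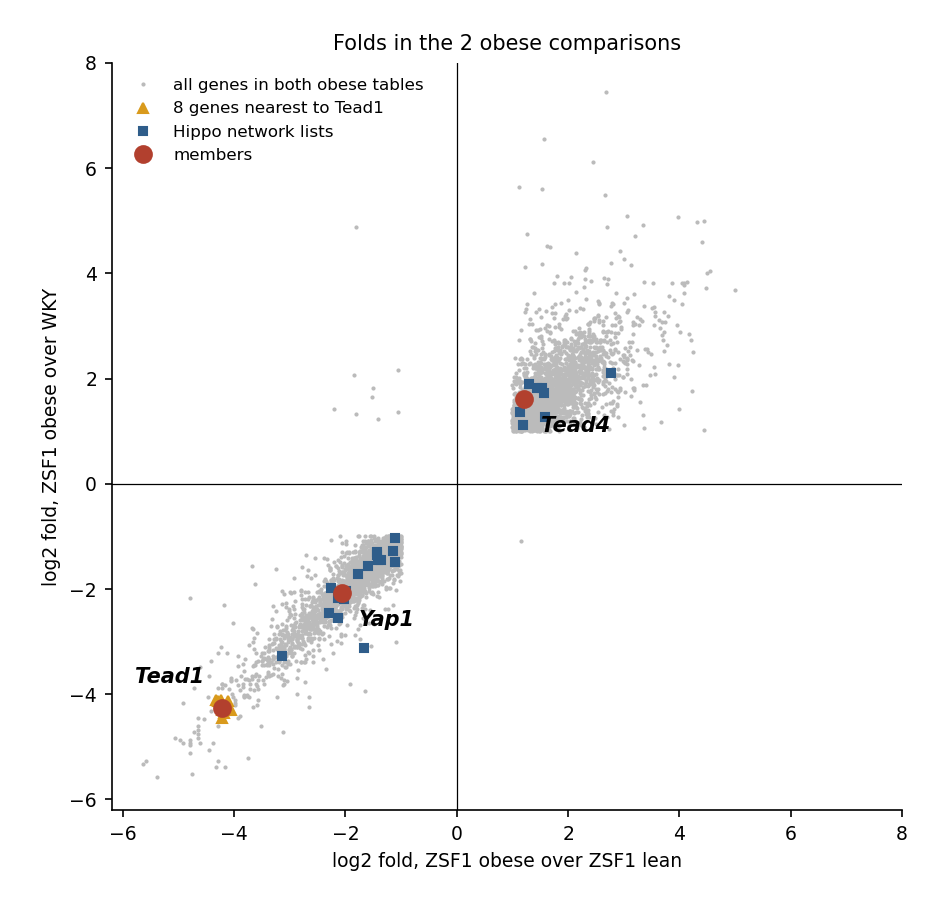
Log2 folds of the 4847 genes listed in both obese comparisons, ZSF1 obese over ZSF1 lean on the horizontal axis and ZSF1 obese over WKY on the vertical axis; each grey point is 1 gene, and the empty bands around 0 follow from the 2-fold limit. Tead1 and the 8 genes nearest to it lie far into the lower left, Yap1 lies amid the lower genes and Tead4 amid the higher ones. The axes share the obese rats.

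The wider network was described from 8 lists of 90 genes in all, the 9 genes included. For obese against lean, 19 were lower and 11 higher, with a median log2 fold of -1.39 over the 30 listed, against 1.07 over all 5700 listed genes. For obese against WKY, 21 were lower and 12 higher, with a median log2 fold of -1.29 over the 33 listed, against 1.08 over all 5709. The lower genes made up 21.1% of the network for obese against lean and 23.3% for obese against WKY, beside the 12.1% and 12% over named protein-coding genes. The higher genes made up 12.2% and 13.3% of the network, near the 13.5% and 13.7% over named protein-coding genes. No test was made of these differences. The shares over named protein-coding genes include genes that the heart does not express. Among listed network genes, 19 of 30 were lower against lean hearts and 21 of 33 against WKY hearts. Among all listed genes the lower shares were 46.6% and 46%. The medians restate these counts, since every listed fold lies beyond 2-fold and a median changes sign once the lower genes pass 50% of those listed.

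Scaffold and polarity genes supplied most of the lower ones. Against lean hearts 10 of 34 were lower and 3 higher, or 29.4% and 8.82%, beside 12.1% and 13.5% of named protein-coding genes. Against WKY hearts 11 were lower and 4 higher, or 32.4% and 11.8%, beside 12% and 13.7%. No test was made. Limd1, a LIM-domain protein that binds Lats kinases, stood at 0.227 of the lean level (adjusted p = 1.67e-60) and 0.170 of the WKY level (adjusted p = 3.81e-75) in the authors' deposited tables. Patj, of the Crumbs polarity complex, stood at 0.203 of the lean level and 0.182 of the WKY level in the authors' deposited tables. Dlg1, of the Scribble polarity module, stood at 0.376 and 0.366 on the same scales in the authors' deposited tables. Nf2, which encodes merlin, an upstream activator of Lats kinases, was at 0.451 of the lean level and 0.412 of the WKY level in the authors' deposited tables. Ptpn14, a phosphatase that binds Yap1, was at 0.371 and 0.390 in the authors' deposited tables. Rassf1, which binds the kinases Stk3 and Stk4, went the other way, with folds of 2.45 over lean hearts and 3.71 over WKY hearts in the authors' deposited tables.

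Among upstream kinases, Taok1, which phosphorylates Stk3 and Stk4, stood at 0.463 of the lean level and 0.356 of the WKY level in the authors' deposited tables, and Tnik at 0.330 and 0.339. Map4k1, a kinase of blood cells, had folds of 2.99 over lean hearts and 2.41 over WKY hearts in the authors' deposited tables. Map4k2 was listed for obese against WKY, at 2.19 times the WKY level in the authors' deposited table. The other genes of this list of 13 had no listed value.

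The STRIPAK complex is a phosphatase assembly that removes the activating phosphate from Stk3 and Stk4. Of its 15 genes, 3 were lower and 2 higher against lean hearts, or 20% and 13.3%, beside 12.1% and 13.5% of named protein-coding genes. Against WKY hearts 4 were lower and 3 higher, or 26.7% and 20%, beside 12% and 13.7%. No test was made. Strip2 had the lowest values, 0.113 of the lean level (adjusted p = 3.49e-52) and 0.103 of the WKY level (adjusted p = 1.45e-62) in the authors' deposited tables. Slmap, which brings the complex to Stk3 and Stk4, stood at 0.227 of the lean level and 0.221 of the WKY level in the authors' deposited tables. Ppp2ca, a catalytic subunit, stood at 0.253 and 0.245, while Ppp2r1b, a scaffold subunit, had folds of 2.91 over lean hearts and 3.53 over WKY hearts in the authors' deposited tables. Of 11 genes for the retention and degradation of Yap1 and Wwtr1, 1 was lower and 1 higher in each obese comparison. Each makes up 9.09% of that list, which is below the shares over named protein-coding genes. Ywhag, which encodes the gamma form of the 14-3-3 proteins, stood at 0.387 of the lean level and 0.366 of the WKY level in the authors' deposited tables. Sfn, which encodes the sigma form, had folds of 6.82 over lean hearts and 4.29 over WKY hearts in the authors' deposited tables.

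**Figure D3:**
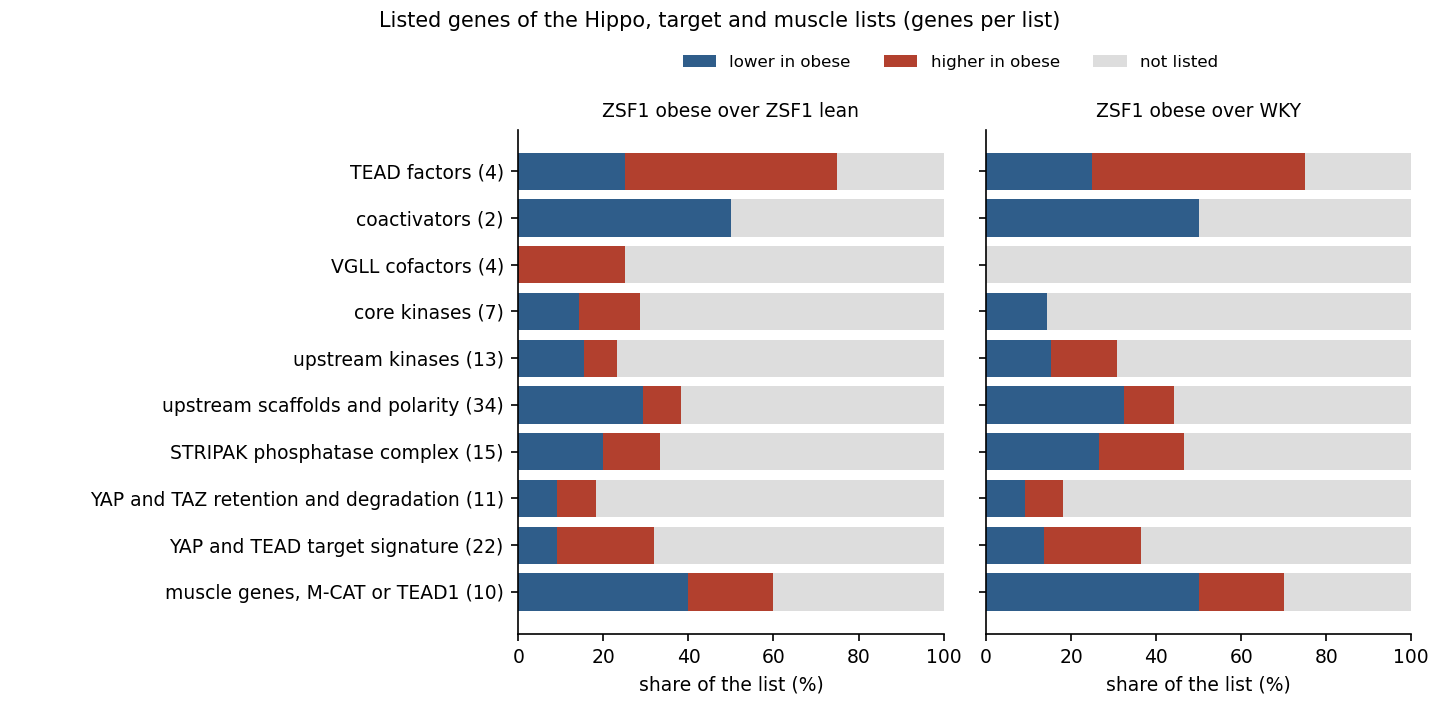
Share of each gene list (horizontal axis, percent of the list; genes per list in brackets) that the authors listed as lower, as higher or not at all in ZSF1 obese over ZSF1 lean (left) and ZSF1 obese over WKY (right) left ventricles. The scaffold list is 29.4% lower and 8.82% higher against lean hearts, while the target signature is 9.09% lower and 22.7% higher.

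Targets were read from 22 genes taken as a signature of Yap1 and TEAD activity in human cancer cells, of which 4 (Ajuba, Amotl2, Lats2 and Ptpn14) are also in the network lists. For obese against lean, 2 were lower and 5 higher. For obese against WKY, 3 were lower and 5 higher. The higher share of 22.7% in each comparison stands beside 13.5% and 13.7% of named protein-coding genes, with no test made. Those protein-coding genes include ones that the heart does not express. Ccn1, Ccn2 and Ankrd1, which are the usual readouts of Yap1 activity, were listed in none of the 3 tables. Myof, a membrane repair protein, had folds of 4.11 over lean hearts (adjusted p = 1.5e-28) and 4.56 over WKY hearts in the authors' deposited tables. Rbms3, an RNA-binding protein, had folds of 4.32 and 2.77, and the kinase gene Nuak2 had folds of 3.05 and 3.14, over lean and over WKY hearts, in the authors' deposited tables. Axl, a receptor tyrosine kinase, and Fjx1 were higher in both comparisons, with folds between 2.25 and 2.60 in the authors' deposited tables. Arhgef17 was lower, at 0.426 of the lean level (adjusted p = 2.38e-27) and 0.363 of the WKY level (adjusted p = 4.56e-36) in the authors' deposited tables. Dock5 was listed for obese against WKY, at 0.493 in the authors' deposited table.

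Contractile and other muscle genes with known M-CAT elements, or reported to depend on Tead1 in muscle, were divided. Of 10, 4 were lower and 2 higher against lean hearts, or 40% and 20%, beside 12.1% and 13.5% of named protein-coding genes. Against WKY hearts 5 were lower and 2 higher, or 50% and 20%, beside 12% and 13.7%. Those protein-coding genes include ones that the heart does not express, and no test was made. Atp2a2, which encodes the pump SERCA2 that refills the sarcoplasmic reticulum with calcium, stood at 0.084 of the lean level (adjusted p = 3.09e-78) and 0.097 of the WKY level (adjusted p = 3.46e-63) in the authors' deposited tables. Myh6, the adult alpha myosin heavy chain, stood at 0.187 and 0.195, and Myocd, a coactivator of serum response factor, at 0.262 and 0.189 in the authors' deposited tables. Nppb stood at 0.48 of the lean level and 0.297 of the WKY level in the authors' deposited tables. Acta1 was listed for obese against WKY, at 0.398 in the authors' deposited table. The smooth muscle genes Acta2 and Tagln were higher, with folds of 3.51 and 3.20 over lean hearts and of 5.86 and 7.26 over WKY hearts in the authors' deposited tables. Tnnt2, Myh7 and Ppp1r1a were listed in none of the 3 tables. Myh6 is also in the cardiomyocyte marker list used here, and Acta2 and Tagln are also in the mural list.

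**Figure D4:**
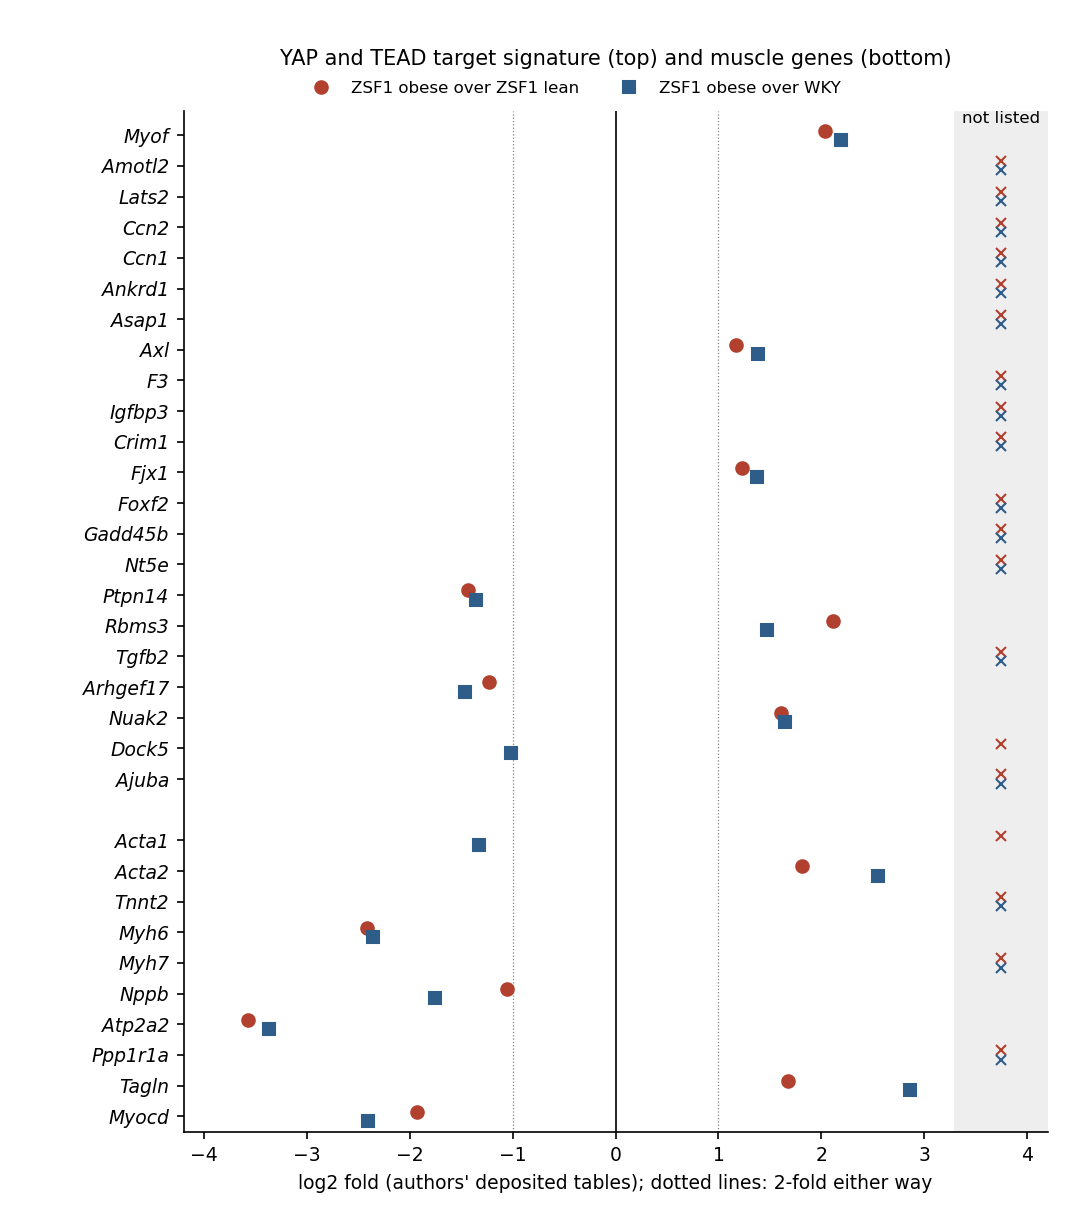
Log2 folds (horizontal axis) of the 22 signature genes (top) and 10 muscle genes (bottom) in ZSF1 obese over ZSF1 lean (circles) and ZSF1 obese over WKY (squares) left ventricles; crosses mark genes without a listed value. Every gene shown that is listed in both comparisons lies on the same side of 0 in both, and Atp2a2 lies lowest, at -3.57 and -3.37. Nearly all genes do so: of the 4847 listed in both comparisons, 2314 were lower in both and 2523 higher in both. The comparisons share the obese rats.

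The M-CAT element CATTCC, searched on both strands in 250 bases before to 50 after the start, was in a promoter of 6 of the 15 signature genes that have one in the RefSeq table, or 40%, and in 15.0% of 27457 genes overall. Among these, Ccn1, Ccn2, Amotl2 and Ajuba were not listed, Nuak2 was higher and Ptpn14 lower. In the muscle list 5 of 7 genes held the element, among them Acta1 and Tnnt2, while Atp2a2 and Myh7 did not. That list was drawn up from genes with known M-CAT elements or reported dependence on Tead1. Of the 9 pathway genes, 5 had a promoter sequence, and Yap1, Vgll4 and Sav1 held the element, while Wwtr1 and Lats1 did not. Of the 72 network genes with a promoter sequence, 14 held the element, or 19.4%, beside the 15.0% of all genes. Among all genes lower in obese than in lean hearts 11.6% held it, and among the higher ones 13.1%. Against WKY these shares were 11.7% and 13.2%. A match describes the letters of the window and does not show binding.

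The pattern of Tead1 was compared with that of 4554 named genes listed in both obese tables and not in the lean table. The 8 nearest by Euclidean distance of the log2 folds were Nt5dc3, Adrb1, Arhgap44, Pld6, Hadh, Prob1, Srrm4 and Cdh20, at distances of 0.028 to 0.193. Nt5dc3 stood at 0.054 of the lean level and 0.051 of the WKY level in the authors' deposited tables, and Adrb1, the main beta-adrenergic receptor of the heart, at 0.055 and 0.049. Hadh, an enzyme of fatty acid oxidation, stood at 0.053 and 0.058 in the authors' deposited tables. Within 0.5 log2 units lay 30 genes. Likeness over 2 folds that share the obese rats is a loose measure.

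Markers of cell types moved with the same comparisons. Over named protein-coding genes, 12.1% were listed as lower and 13.5% as higher against lean hearts, and 12% and 13.7% against WKY hearts. Of 12 cardiomyocyte markers, 7 were lower and 0 higher in each obese comparison, between 0.187 and 0.384 of the lean level and between 0.195 and 0.444 of the WKY level in the authors' deposited tables, while 5, among them Ttn and Tnni3, were not listed. Tead1 lay below each of these listed markers, at 0.054 and 0.052, and Yap1, at 0.240 and 0.237, lay within their range. Of 12 endothelial markers, 10 were higher in each obese comparison, with folds of 2.19 to 4.96 over lean hearts and 2.59 to 4.66 over WKY hearts in the authors' deposited tables. These ranges hold the folds of Tead2 and Tead4. So do those of the listed fibroblast markers, 2.31 to 19.97 over lean hearts and 2.14 to 31.56 over WKY hearts in the authors' deposited tables. The macrophage and lymphocyte ranges hold the folds of Tead2 in both comparisons and that of Tead4 against WKY. Fibroblast markers were higher in 8 of 12 cases against lean hearts and 10 of 12 against WKY hearts, macrophage markers in 11 of 12 in each, and lymphocyte markers in 8 and 7 of 12, with 0 lower in any of these. Mural and smooth muscle markers were mixed, with 2 lower in each and 5 higher against lean hearts and 4 higher against WKY hearts. The lower ones made up 16.7% of that list, and the higher ones 41.7% and 33.3%. All listed genes of the mitochondrial genome were higher, 12 against lean hearts and 11 against WKY hearts. Among all listed genes, 53.4% were higher against lean hearts and 54.0% against WKY hearts. Of the genes for small nucleolar RNAs, a class without poly(A) tails, 21 were higher and 2 lower against lean hearts, and 25 higher and 1 lower against WKY hearts. The part of cell makeup and of RNA quality in the folds of the pathway was not tested. In bulk tissue, fewer cells of a type and less RNA per cell cannot be told apart.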

How the data were processed

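Per the labels' protocols, total RNA of the left ventricle was isolated with a Qiagen RNeasy kit, and polyadenylated RNA was made into libraries with a stranded TruSeq kit and read on a HiSeq. The submitters' processing notes name build Rnor_6.0, the aligner HISAT2 2.1.0, the counter HTSeq 0.11.2 and the test DESeq2 1.22.2; settings and strand handling are not given in the sources used. The deposited fold is a linear ratio, with the group named first in each comparison on top, and the deposited FDR is an adjusted p-value from the authors' comparison of 6 with 6 rats. All listed genes changed at least 2-fold, to 0.5 or less or to 2 or more. The labels name no library batches, so a batch cannot be told apart from a group.

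No read counts, levels or values per rat were used, so the depth is unknown. The folds are given here without a standard error or interval, and an adjusted p does not measure the spread of a fold. The labels do not say how the rats were bred or housed. Tissue labels could not be checked against marker levels, since the tables hold folds. Logarithms, counts, ranks and quotients were computed with Python 3.11.15 and pandas 2.3.3, and the counting and the distance were tested on simulated data, a shuffled obese against WKY table with known members. Members and lists were chosen with earlier results of these data known, and the fixed lists were described by counts and medians, with no test. The share of named protein-coding genes used 20946 genes of the RefSeq GRCr8 table, matched by symbol; it was the background, since the sources do not say which genes the authors tested. Named genes were the members, up to 4 genes per pathway, target and muscle list by adjusted p in each obese comparison, 9 preset pathway genes and the 8 genes nearest to Tead1. Axl, Fjx1, Dock5, Acta1, Nppb, Amotl2, Ajuba, Tnnt2, Myh7, Ppp1r1a, Ttn and Tnni3 were named after their values were seen. Predicted and clone names were left out of the nearest genes.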

Additional observations from a re-analysis of the deposited data

How the results depend on the processing

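Counts of members and of listed genes were repeated with an adjusted p under 0.001, with a fold of at least 4 either way and with deposited symbols alone. The number of members listed as lower stayed at 2 in each obese comparison and 0 in lean against WKY under these settings. Yap1, at 0.240 and 0.237, lay close to the 4-fold limit of 0.25. The members listed as higher, Tead4, Vgll4 and Stk3, had folds of 2.11 to 3.05, so none of them passed that limit. With a fold of at least 4, 8 network genes were lower against lean hearts and 9 against WKY hearts, and 2 and 1 signature genes were higher; fewer genes pass that limit by construction. Without the 9 members, chosen after seeing the data, 17 and 19 network genes were lower. Tead1 ranked 25 by adjusted p against lean hearts and 5 against WKY hearts. Rounding of the folds allows a log2 quotient of lean over WKY of -0.082 to -0.027 for Tead1, -0.024 to -0.012 for Yap1 and 0.400 to 0.401 for Tead4. These limits hold rounding alone. In the 79 genes with a deposited lean fold to compare, the quotient differed from it by a median of 0.34 on the log2 scale. The 8 nearest genes were shared with those by the largest difference. The M-CAT count of the signature was 6 for CATTCC and 6 for CATTCCA or CATTCCT. The muscle list also kept 5 genes with the longer forms. The share over all genes fell from 15.0% to 9.73%, and that of the network from 19.4% to 12.5%. Of the members with a promoter sequence, 2 rather than 3 held a longer form. Sav1 held none, and Vgll4 kept 1 of its 2 elements. No paired analysis was possible because the groups share no replicate numbers and the tables hold no values per rat. Left-out rats could not be run for the same reason.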
